A study of Mus musculus with 2 samples.

Results

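Fibroblast growth factors (FGFs) and their receptors were examined in whole-genome bisulfite sequencing (WGBS) of mouse primary osteoblasts, the bone-forming cells grown here from newborn skull. The set held 9 genes, taken by name, of the 21938 protein-coding genes that GENCODE M21 places on the nuclear chromosomes of GRCm38: the ligands Fgf2, Fgf7, Fgf9, Fgf10, Fgf18 and Fgf23 and the receptors Fgfr1, Fgfr2 and Fgfr3. For each gene, CG methylation was measured within 2 kb of the transcription start site (TSS), over the gene body, and in 200 bp bins of the gene with 25 kb on each side. Fgf7 was then compared with its relatives.

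The WT library came from mice labelled wild type and the TCKO library from triple conditional knockout mice, which carried Prx1-Cre and were homozygous for floxed Tet1 (Tet1fl/fl), floxed Tet2 (Tet2fl/fl) and floxed Tet3 (Tet3fl/fl). Both groups were C57BL/6 and 3-day-old, and the calvarial osteoblasts were cultured before DNA was extracted. The labels do not say whether the WT mice carried floxed alleles or how many mice gave each library. Prx1-Cre acts in limb mesenchyme and in part of the skull, so cells of other origin in such a culture keep their Tet genes. TET enzymes oxidise 5-methylcytosine (5mC), the step that starts its removal, and bisulfite reads 5mC and 5-hydroxymethylcytosine alike. With 1 library per genotype there is no replicate check, and a test sets one library against the other rather than genotype against genotype. All intervals and floors cover counting error only. They and the p-values treat calls as independent, which calls on 1 read are not. The intervals and floors are thus likely too narrow and the p-values too small. In DNA from a mixed culture, an intermediate level in every cell and a high level in some cells cannot be told apart.

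The WT library held 261062118 calls at 7.13 per covered cytosine and the TCKO library 223581206 at 6.24, a ratio of 0.856, and the pooled level was 70.2% and 76.3%. The most depleted exon of each Tet gene went from 62 calls to 1 (Tet1), from 155 to 46 (Tet2) and from 85 to 26 (Tet3). Of 8 osteoblast marker genes, 3 (Col1a1, Col1a2 and Runx2) were under 20% at their start in WT, with a median of 29.1% over the 8, against 0 of 13 markers of other cell types (median 65.6%). The 2 sets overlapped. Bglap (76.85%), Ibsp (60.8%) and Alpl (55.6%) were high among the osteoblast markers, and Col2a1 of cartilage was the lowest of the others (22.2%).

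FGFs are secreted proteins that bind receptor tyrosine kinases with heparan sulfate or klotho proteins as co-receptors, and the receptors signal mainly through Ras and MAP kinases. In the skeleton, FGF signals act in limb outgrowth, in the growth plate and at the sutures of the skull, and activating mutations of the receptors cause premature suture closure and dwarfism. CpG-rich gene starts are usually free of methylation, while most CpGs elsewhere are methylated except at active regulatory elements.

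The sequences below show where the gains described here lie. Each is one 200 bp bin read from the plus strand of GRCm38 (RefSeq, GRCm38.p6), with every CpG in capitals, since the capitals are the positions measured. The bins of Fgf7 and Fgf18 lie upstream of the start, that of Fgf23 and that of Fgfr1 farther upstream, and those of Fgf2, Fgf10 and Fgfr2 in introns. The second Fgfr2 bin had no methylated call in WT and was chosen after its values were seen.
Fgf7 chr2:126034401-126034600: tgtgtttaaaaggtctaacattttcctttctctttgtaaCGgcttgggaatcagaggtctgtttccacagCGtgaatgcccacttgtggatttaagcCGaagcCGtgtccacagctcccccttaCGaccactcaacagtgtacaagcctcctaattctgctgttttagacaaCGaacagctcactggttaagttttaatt
Fgf2 chr3:37373801-37374000: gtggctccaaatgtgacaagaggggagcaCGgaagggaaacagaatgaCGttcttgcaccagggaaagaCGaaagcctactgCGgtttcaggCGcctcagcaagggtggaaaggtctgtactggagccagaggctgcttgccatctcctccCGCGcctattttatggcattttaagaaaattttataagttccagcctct
Fgf10 chr13:118731801-118732000: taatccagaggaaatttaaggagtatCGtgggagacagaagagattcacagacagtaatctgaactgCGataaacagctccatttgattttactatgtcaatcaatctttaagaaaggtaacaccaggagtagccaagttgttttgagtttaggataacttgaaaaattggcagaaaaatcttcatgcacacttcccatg
Fgf18 chr11:33149001-33149200: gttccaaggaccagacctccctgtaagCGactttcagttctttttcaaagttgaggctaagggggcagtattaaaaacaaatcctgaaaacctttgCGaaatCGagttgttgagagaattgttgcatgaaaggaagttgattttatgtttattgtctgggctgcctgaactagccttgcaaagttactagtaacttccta
Fgf23 chr6:127057401-127057600: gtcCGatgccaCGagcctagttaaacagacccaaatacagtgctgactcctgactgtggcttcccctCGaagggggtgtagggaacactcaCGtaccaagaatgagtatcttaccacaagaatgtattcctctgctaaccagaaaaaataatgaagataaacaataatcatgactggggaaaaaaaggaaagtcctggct
Fgfr1 chr8:25505801-25506000: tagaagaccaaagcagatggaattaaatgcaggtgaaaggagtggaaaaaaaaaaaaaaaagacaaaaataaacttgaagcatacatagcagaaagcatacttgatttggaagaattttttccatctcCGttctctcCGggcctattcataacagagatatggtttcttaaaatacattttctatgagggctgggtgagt
Fgfr2 chr7:130201401-130201600: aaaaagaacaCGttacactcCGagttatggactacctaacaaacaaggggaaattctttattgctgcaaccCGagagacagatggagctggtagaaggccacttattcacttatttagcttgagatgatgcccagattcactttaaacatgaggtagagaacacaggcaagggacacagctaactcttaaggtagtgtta
Fgfr2 chr7:130215601-130215800: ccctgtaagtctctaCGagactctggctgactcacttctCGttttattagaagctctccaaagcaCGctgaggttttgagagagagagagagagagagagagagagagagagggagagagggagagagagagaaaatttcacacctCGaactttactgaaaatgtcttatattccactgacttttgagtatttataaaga

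Fgf7 (ENSMUSG00000027208, chromosome 2 from 126034658 to 126091185, plus strand) encodes keratinocyte growth factor, a ligand that mesenchymal cells make and that acts on epithelial FGFR2. Within 2 kb of its TSS, 197 of 579 calls were methylated in WT (34.0%, 95% Wilson interval 30.3 to 38.0) and 373 of 449 in TCKO (83.1%, 79.3 to 86.3). The gain, which here means the TCKO level minus the WT level, was 49.05 percentage points (95% interval 43.6 to 54.0) at an adjusted p of 9.74e-55 (Fisher exact test, 2-sided, adjusted by Benjamini and Hochberg over 21883 genes). It ranked 1 of those 21883 genes, whose median gain was 4.71 points with the 5th percentile at -6.46 and the 95th at 18.7. The study had already named Fgf7 as hypermethylated in TCKO from these libraries, so its test and rank are not independent evidence. A gain of 40 points or more was reached by 20 genes, 0.0914% of those tested, and by Fgf7 alone among the members. When only CpGs read in both libraries were used and each CpG was weighted alike in both (matched by CpG, a Mantel-Haenszel difference added after the data were seen), the gain was 49.07 points (44.6 to 53.5) over 59 shared CpGs, and it ranked 3 of 21877 genes.

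**Figure D1:**
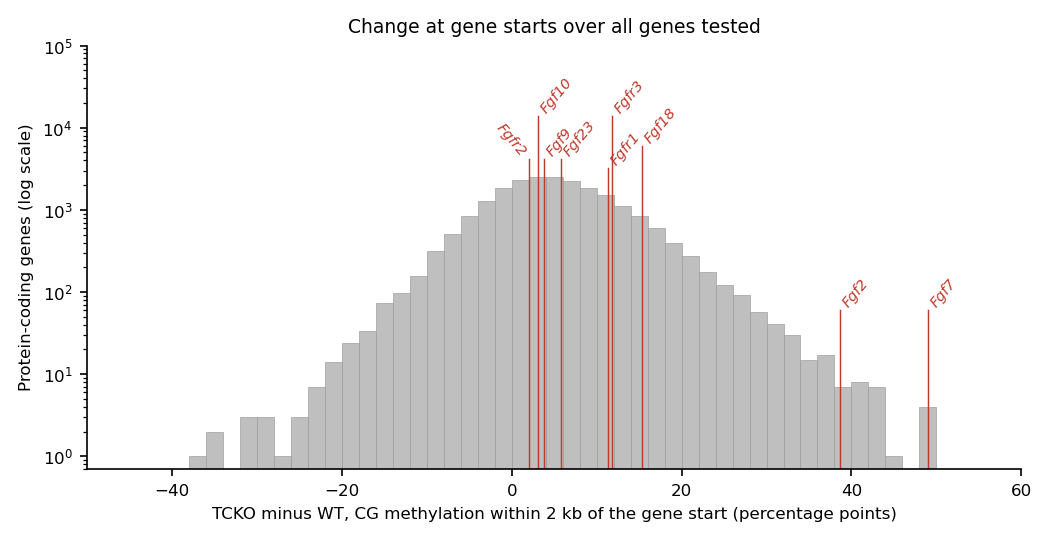
Histogram of the gain within 2 kb of the gene start over the 21883 protein-coding genes tested, in percentage points on the x axis and number of genes on a log y axis, with the 9 members drawn as red lines at their gains. Fgf7 stands at 49.05 points and Fgf2 at 38.65, beyond the 95th percentile of 18.7, and the other 7 lie between 2.00 and 15.4. Fgfr2, at 2.00, is taken at the start of its gene model, far from its coding start.

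The gain at Fgf7 was greatest at the start itself. Within 500 bp of the TSS, 14 of 234 calls were methylated in WT (5.98%) and 128 of 168 in TCKO (76.2%), a gain of 70.2 points (62.3 to 76.5). From 500 to 2000 bp upstream the level went from 61.8% to 84.8%, and over the same distance downstream from 47.4% to 88.5%. The start was thus the least methylated stretch of the window in WT, and in TCKO it was near the level of its flanks. Single CpGs gave the same picture: of 49 CpGs with 4 or more calls in each library, 46 were higher in TCKO, 1 was lower and 2 were equal, 25 gained 40 points or more, and the median difference was 42.5 points. Of these, 14 had no methylated call in WT, and all 14 had some in TCKO. Median depth was 10 calls per CpG in WT and 7 in TCKO, so the level of a single CpG is known only coarsely.

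**Figure D2:**
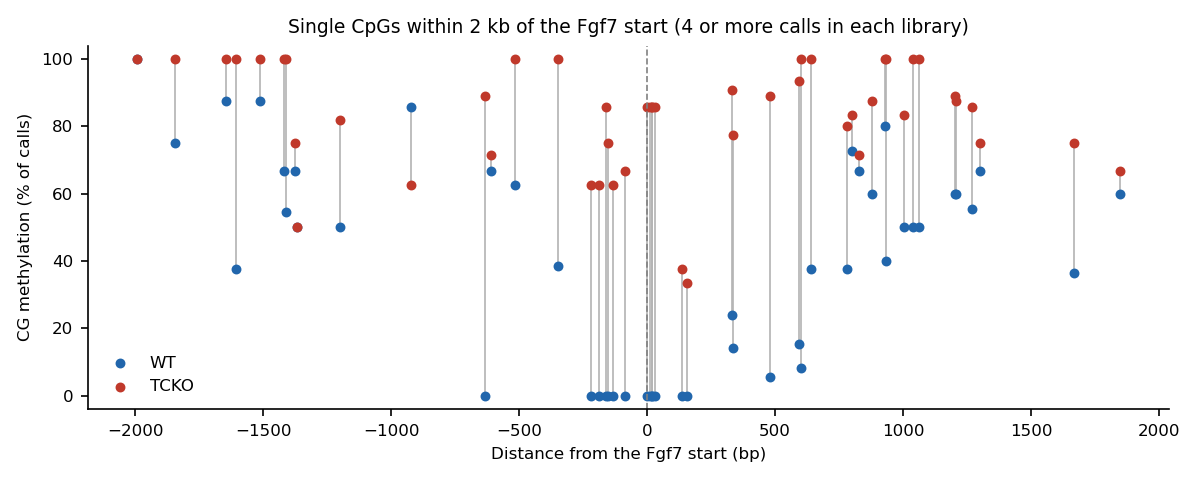
CG methylation (y axis, % of calls) of the 49 CpGs within 2 kb of the Fgf7 TSS with 4 or more calls in each library, against distance from the TSS in bp (x axis), with WT in blue, TCKO in red and a grey line joining the same CpG. In 46 of the 49 the red point is above the blue one, and the 14 CpGs at 0% in WT lie higher in TCKO.

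At 200 bp, the bin whose sequence opens the set above, centred at -158 bp, had 0 of 80 methylated calls in WT, which allows a level of up to 3.75%, and 33 of 48 in TCKO (68.8%), with an adjusted p of 2.33e-16 by the exact test. This bin holds 6 CpGs. The next gaining bin, in exon 1, went from 13.6% to 75.5%, and the one 642 bp downstream, with the largest gain of the locus, from 19.4% to 91.3%. These 3 bins span 1000 bp, with 16 of 257 methylated calls in WT (6.23%) and 164 of 208 in TCKO (78.85%). Only 81 protein-coding genes had 3 or more gaining bins within 2 kb of their start. A further bin at -3358 bp, chosen after its values were seen, went from 6.25% to 59.5%.

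Fgf7 lies inside Fam227b, which runs on the opposite strand and whose own start went from 33.8% to 44.5% (gain 10.7 points, Fisher exact test, adjusted p = 0.00246). CG calls were pooled over both strands, so the values within Fgf7 belong to both genes. The other coding start annotated for Fgf7 gained 47.0 points.

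The Fgf7 start is poor in CpGs, with 17 within 500 bp of the TSS and an observed-to-expected ratio of 0.379, and 30.1% of 21875 genes had fewer. Fgf23, with 11, was the only member with fewer, and the other 7 members had between 34 (Fgf9) and 121 (Fgf18). Over 21875 genes split into 4 classes by this count, with the gain taken around the coding start, the class with 14 to 43 CpGs, which holds Fgf7 and Fgf9, had 10 genes that gained 40 points or more. The class with 0 to 13 CpGs had 7, and the classes with 44 to 71 and with 72 to 180 had 1 each. Median gains were 2.78, 6.06, 4.95 and 4.94 points from the lowest class to the highest.

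Among the 9 members, 5 were higher in TCKO within 2 kb of the gene start (adjusted p under 0.05) and 0 were lower, against 37.9% of all genes higher and 2.88% lower. The 5 were Fgf2, Fgf7, Fgf18, Fgfr1 and Fgfr3. At the start of the best supported coding transcript, an alternative added because the gene model of Fgfr2, Fgf10 and Fgfr1 begins far from it, 4 of 9 were higher, against 37.8% of all genes, and Fgfr1 dropped out. With calls matched by CpG, 5 of 9 were higher, against 46.0% of all genes, with Fgfr2 in and Fgfr1 out. At 9 genes these counts are near the shares over all genes.

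**Figure D3:**
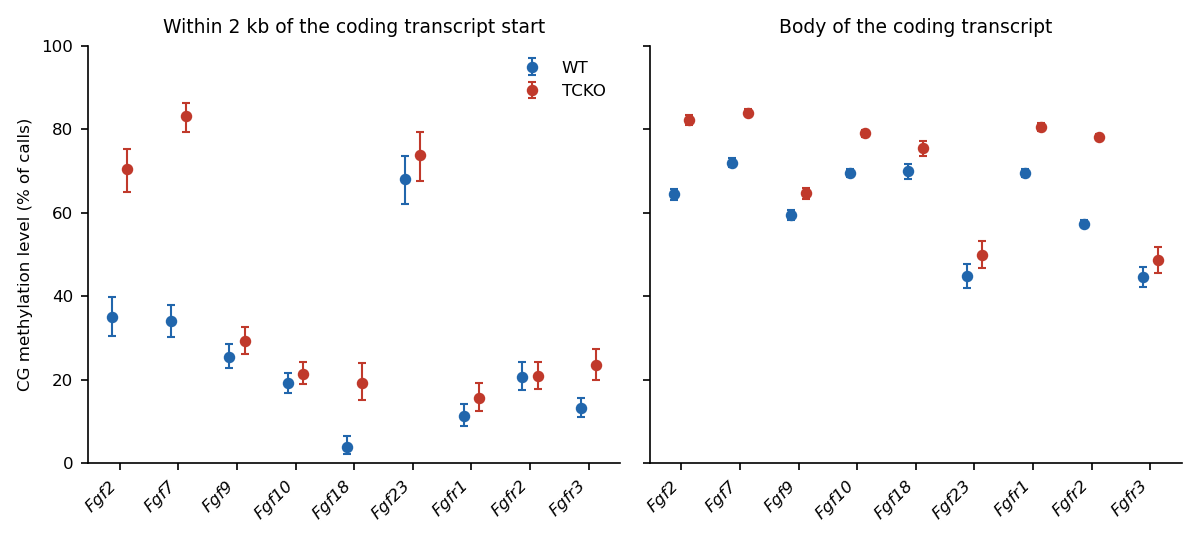
CG methylation level (y axis, % of calls) of the 9 members within 2 kb of the coding transcript start (left) and over the body of the coding transcript (right), in WT (blue) and TCKO (red), with bars for the 95% Wilson interval of each library. At the start, the libraries stand far apart at Fgf7 (34.0% and 83.1%) and Fgf2 (35.0% and 70.3%), and at the body Fgfr2 shows the widest distance (57.4% and 78.1%). Matched by CpG, which is not drawn, the levels of Fgf2 at this start were closer, at 54.5% and 70.35%.

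Fgf2 (ENSMUSG00000037225, chromosome 3 from 37348346 to 37410108, plus strand), basic FGF, a broadly acting growth factor for mesenchymal cells, had the second largest pooled gain of the members. At its gene start, 94 of 341 calls were methylated in WT (27.6%) and 147 of 222 in TCKO (66.2%), a gain of 38.65 points (30.5 to 46.1) at an adjusted p of 1.23e-17 by the Fisher exact test. Depth was uneven across this window, though. Within 500 bp of the coding start, where 77 CpGs lie, WT had 168 calls (1.19% methylated) and TCKO only 29 (3.45%), so the unmethylated centre weighs more in the WT value. Matched by CpG, the gain was 20.6 points (14.01 to 27.2), from 44.8% to 65.4% over 41 shared CpGs, and 451 genes gained as much or more. The gain that remained was seen outside the centre, from 55.9% to 76.1% at 500 to 2000 bp upstream and from 61.4% to 78.4% downstream. In the 500 bp upstream of the coding start TCKO had only 3 calls. All 4 annotated coding starts of Fgf2 were higher in TCKO, by 22.1 to 38.65 points before matching. Matched by CpG, the gain at the best supported coding start was 15.8 points (9.78 to 21.9).

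Fgf18 (ENSMUSG00000057967, chromosome 11 from 33117430 to 33147400, minus strand) encodes a ligand required for normal skull and long bone formation. Within 2 kb of its start, 13 of 337 calls were methylated in WT (3.86%) and 60 of 312 in TCKO (19.2%), a gain of 15.4 points (10.6 to 20.4) at an adjusted p of 6.02e-09 by the Fisher exact test. Matched by CpG it was 20.8 points (16.1 to 25.6), and with only rows (a cytosine on 1 strand) of 4 or more calls 31.4 points. The gain lay upstream: from 500 to 2000 bp upstream, 7 of 170 calls were methylated in WT (4.12%) and 53 of 184 in TCKO (28.8%). Within 500 bp the level was 0 of 85 in WT, which allows up to 3.53%, and 1 of 61 in TCKO (1.64%). All 85 WT calls and 55 of the TCKO calls lay downstream of the start. The 500 bp upstream thus had no WT call and could not be compared. Only 15 CpGs of this CpG-rich window had 4 or more calls in each library, of which 12 were higher in TCKO and 0 lower. The other coding start annotated for Fgf18 was at -6.80 points and did not pass.

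The other 3 ligands did not pass the test at their starts. Fgf9 (ENSMUSG00000021974, chromosome 14 from 58070547 to 58112720, plus strand), a ligand of limb and skull mesenchyme, had 25.6% in WT (837 calls) and 29.3% in TCKO (798 calls), a gain of 3.76 points with an interval from -0.569 to 8.07. The 2 kb downstream of its start had 1 methylated call of 414 in WT and 1 of 403 in TCKO. Fgf10 (ENSMUSG00000021732, chromosome 13 from 118669791 to 118792115, plus strand), the mesenchymal signal that starts limb outgrowth, belongs with Fgf7 to one subfamily. Its coding start lies 44908 bp downstream of the start of the gene model. There it had 19.1% in WT (1056 calls) and 21.4% in TCKO (910 calls), a gain of 2.30 points (-1.25 to 5.88). Within 500 bp no call was methylated in either library, 0 of 295 in WT (up to 1.02%) and 0 of 287 in TCKO (up to 1.05%). Fgf10 and Fgf7 thus stood far apart: no CpG with 4 or more calls around the Fgf10 start gained 40 points, of 66, and 25 of 49 did at Fgf7. Fgf23 (ENSMUSG00000000182, chromosome 6 from 127072902 to 127081408, plus strand), the bone hormone that lowers serum phosphate, had 68.1% in WT (260 calls) and 73.9% in TCKO (207 calls), a gain of 5.84 points (-2.50 to 13.9). The 2 kb upstream of Fgf23 went from 67.2% to 78.8% (difference 11.6 points, 2.02 to 20.7) and the 2 kb downstream from 70.3% to 60.7% (-9.56 points, -25.5 to 6.65), so the sides differed in sign.

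The 3 receptors had levels between 11.3% and 23.4% at their best supported coding starts over both libraries. Fgfr1 (ENSMUSG00000031565, chromosome 8 from 25513654 to 25575718, plus strand), a receptor of osteoblast lineage cells that also carries FGF23 signals with klotho, had 63.9% in WT and 75.2% in TCKO at the start of its gene model, a gain of 11.3 points (5.67 to 16.8, Fisher exact test, adjusted p = 5.73e-04). This call was lost at the best supported coding start and with matching by CpG. Across the 8 annotated coding starts of Fgfr1 the gains ran from 4.27 to 11.3 points before matching, and 4 were higher in TCKO. At the coding start 5135 bp downstream the levels were 11.3% and 15.6% (gain 4.31 points, 0.112 to 8.60, Fisher exact test, adjusted p = 0.106), and matched by CpG at the gene start the gain was 4.72 points (-0.0603 to 9.51). In the 2 kb after the coding start, 0 of 352 calls were methylated in WT (up to 0.852%) and 2 of 299 in TCKO.

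Fgfr3 (ENSMUSG00000054252, chromosome 5 from 33721674 to 33737068, plus strand), the receptor that restrains growth plate chondrocytes, had 126 of 869 methylated calls in WT (14.5%) and 127 of 482 in TCKO (26.35%). The pooled gain of 11.85 points (7.36 to 16.5, Fisher exact test, adjusted p = 2.16e-06) was reduced to 4.13 points (2.02 to 6.24) when matched by CpG, and was 38.5 points when only rows of 4 or more calls were kept (Fisher exact test, adjusted p = 3.31e-15). TCKO had 0.555 times the calls of WT in this window, and the stretch downstream of the start, at 1.88% and 0.567%, had 692 calls in WT and 353 in TCKO. In the 2 kb upstream of the coding start, the level was 53.9% in WT and 80.3% in TCKO, a difference of 26.4 points (16.4 to 35.5). Across the 10 annotated coding starts of Fgfr3 the gains ran from 0.271 to 11.85 points before matching, and 4 were higher in TCKO.

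Fgfr2 (ENSMUSG00000030849, minus strand of chromosome 7), the receptor whose activating mutations fuse the cranial sutures, has a gene model of 2960900 bp in this annotation, from 130162451 to 133123350, which overlaps 30 other coding genes. Its best supported coding transcript covers 103813 bp, from 130162451 to 130266263, and starts 2857087 bp from the start of the model. At the start of the model the level was 5.63% in WT and 7.63% in TCKO, and at the coding start 20.7% and 20.9% (gain 0.165 points, -4.50 to 4.83). The window around the start of the model also holds the start of another gene on the same strand, Ctbp2. Within 500 bp of the coding start, 5 of 158 calls were methylated in WT (3.16%) and 4 of 278 in TCKO (1.44%). Of 5 annotated coding starts of Fgfr2, 1 was higher in TCKO, that at 130261857, inside the gene, with 11.7% in WT (582 calls) and 48.3% in TCKO (580 calls), a gain of 36.6 points (Fisher exact test over 54267 starts, adjusted p = 4.08e-41). The window of this start covers exon 2 and parts of both introns beside it, downstream of the CpG-rich start.

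**Figure D4:**
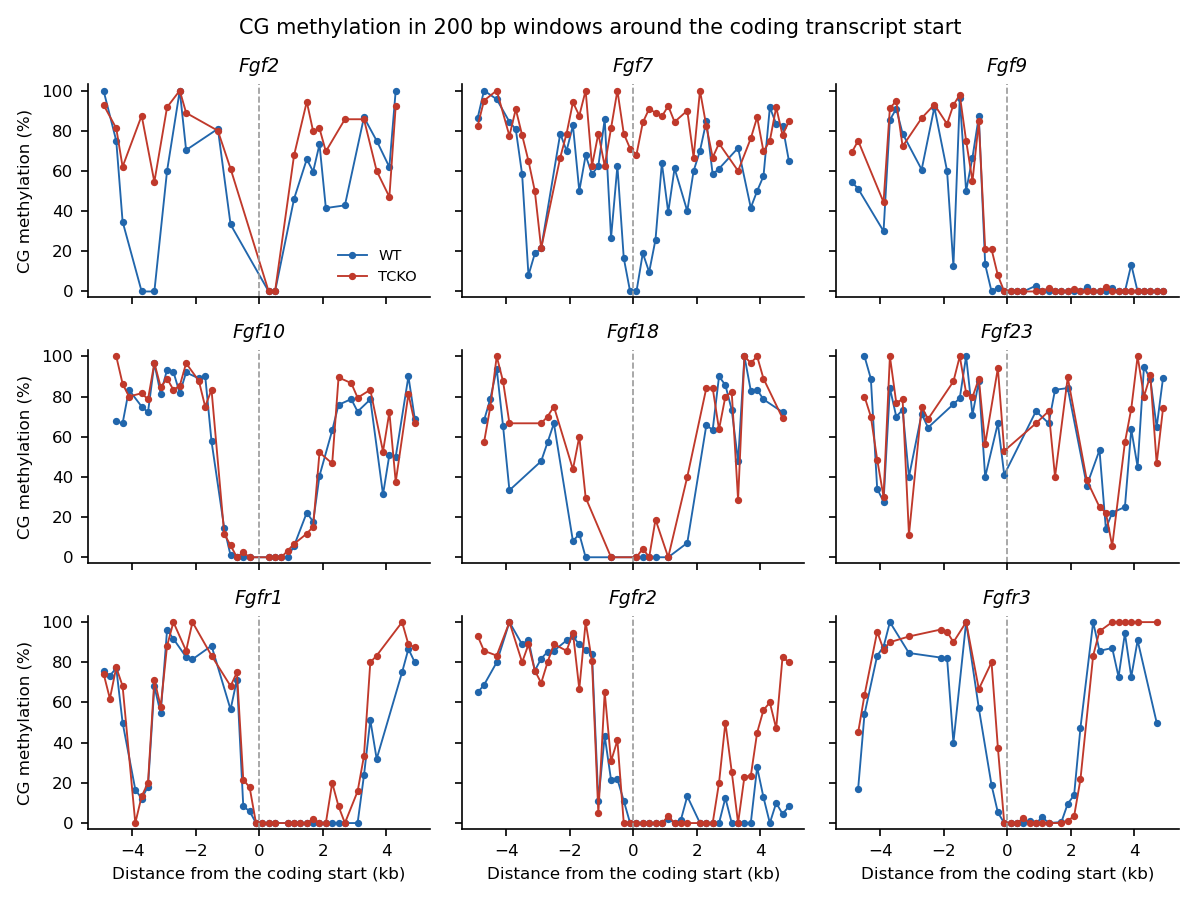
CG methylation (y axis, % of calls) in 200 bp windows against distance from the coding transcript start in kb (x axis, dashed line at the start), in WT (blue) and TCKO (red), for windows with 5 or more calls in each library, 1 panel per member. At Fgf7 the WT trough at the start (5.98% within 500 bp) is absent from TCKO (76.2%), whereas at Fgf10 both libraries are at 0% within 500 bp and at Fgfr1 both are low there (1.81% and 8.23%).

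In WT the levels at the coding starts ran from Fgf23 (68.1%) through Fgf2 (35.0%), Fgf7 (34.0%), Fgf9 (25.6%), Fgfr2 (20.7%), Fgf10 (19.1%), Fgfr3 (13.2%) and Fgfr1 (11.3%) to Fgf18 (3.86%). Fgf2 and Fgf7, Fgf9 and Fgfr2, Fgfr2 and Fgf10, and Fgfr3 and Fgfr1 had overlapping intervals, while the other neighbours in this order did not overlap. In TCKO the order was Fgf7 (83.1%), Fgf23 (73.9%), Fgf2 (70.3%), Fgf9 (29.3%), Fgfr3 (23.4%), Fgf10 (21.4%), Fgfr2 (20.9%), Fgf18 (19.2%) and Fgfr1 (15.6%). Fgf2 and Fgf9 were there the only neighbours whose intervals did not overlap. Fgf7 moved from the third place to the first.

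The gain of Fgf7 at the gene start exceeded that of each relative. It was 10.4 points larger than that of Fgf2 (1.01 to 19.8), and 28.5 points larger when both were matched by CpG (20.5 to 36.4). Against Fgf10, its nearest relative here, the difference was 45.9 points (39.0 to 52.9). Against the other 3 ligands and the 3 receptors the differences ran from 33.7 points (Fgf18, 26.6 to 40.8) to 47.05 points (Fgfr2, 41.2 to 52.9). This Fgfr2 value is that of the start of its gene model, 2857087 bp from its best supported coding start. At that coding start the difference was 48.9 points (41.9 to 55.9). Another coding start, inside Fgfr2 at 130261857, itself gained 36.6 points. With only rows of 4 or more calls, the difference was 19.9 points for Fgf18 (9.70 to 30.03), 12.7 points for Fgfr3 (2.28 to 23.2) and 18.8 points for Fgf2 (7.22 to 30.4). Of the 8 intervals at the gene start over all calls none included 0, with no adjustment over the 8. Fgf7 had already been named by the study as hypermethylated in TCKO, from these same libraries. The differences therefore describe the size of its gain and are not an independent test of it.

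The subfamily partners of the members all gained less than Fgf7 and Fgf2, while some gained more than the member they belong with. The other genes of the Fgf7 subfamily gave -3.44 points (Fgf3, Fisher exact test, adjusted p = 0.0488) and 7.25 points (Fgf22, exact test, adjusted p = 0.0641). Fgf20 and Fgf16, partners of Fgf9, gained 15.3 points and 8.97 points and passed the test, as did Fgf17, a partner of Fgf18, at 10.9 points. Fgf1, the partner of Fgf2, passed at 9.45 points. The partners that did not pass were Fgf8 at 1.76 points, Fgf15 at 0.207 points and Fgf21 at 9.21 points, and the last 2 are endocrine FGFs like Fgf23.

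Of 44 other genes of the pathway, 22 were higher in TCKO at the gene start, 4 were lower and 18 did not pass, against 37.9% higher and 2.88% lower over all genes, and their median gain was 6.55 points against 4.71. By role, 6 of 16 ligands, 3 of 4 receptors and co-receptors, 3 of 6 carriers and membrane regulators, 5 of 8 signal transducers, 3 of 7 feedback inhibitors and 2 of 3 transcription factors were higher. The 3 largest gains were 23.9 points at Kl, which encodes the klotho co-receptor of FGF23 (40.8% to 64.7%), 20.6 points at Fgfbp1, a carrier that releases FGFs from the matrix, and 18.8 points at Sos1, which activates Ras. At the low end, Ptpn11, the phosphatase SHP2, had a difference of -10.5 points (Fisher exact test, adjusted p = 5.10e-04) and Il17rd, a feedback inhibitor at the membrane, -7.89 points (exact test, adjusted p = 0.0149). Fgf13, an intracellular FGF homologue, was at -6.76 points and did not pass. Its sign depended on the start used, as its coding start was at 9.45 points and did not pass either. The largest gain of the 44 was thus under that of Fgf7 and that of Fgf2 before matching.

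Over gene bodies, 8 of 9 members were higher in TCKO, against 64.4% of all genes, and 33 of the 44 other pathway genes were. Fgf2 had the largest gain of the gene bodies, from 63.7% (4615 calls) to 82.2% (4548 calls), 18.4 points (16.6 to 20.2), which 370 of 21625 genes equalled or exceeded. Fgf7 went from 72.0% to 83.9% (11.9 points, 10.6 to 13.3), and its gain minus that of Fgf2 was -6.48 points (-8.69 to -4.26). Without the 2 kb after the TSS it still gained 9.99 points. Fgfr1 gained 10.9 points (68.0% to 78.9%), and the difference between Fgf7 and Fgfr1 was 1.06 points with an interval of -0.847 to 2.96. Over the body, unlike at the start, Fgf7 did not have the largest gain of the members. The remaining ligands gained 7.64 points (Fgf10), 5.41 points (Fgf18), 5.18 points (Fgf23) and 5.11 points (Fgf9). Fgfr3 went from 44.5% to 48.7% and was the member that did not pass (Fisher exact test, adjusted p = 0.0532).

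Fgfr2 was the member whose body changed most once its coding transcript was used. Over those 103813 bp, 7104 of 12376 calls were methylated in WT (57.4%) and 8289 of 10614 in TCKO (78.1%), a gain of 20.7 points (19.5 to 21.9, Fisher exact test, adjusted p = 2.04e-245), which 262 of 21610 transcripts equalled or exceeded. Matched by CpG it was 21.4 points (20.5 to 22.4). The gain of the Fgf7 body minus that of this body was -8.75 points (-10.5 to -6.98). Over the whole gene model, most of which is other genes, Fgfr2 gained 8.66 points (70.2% to 78.9%).

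Across the 200 bp bins with 4 or more measured cytosines and a mean of 4 or more calls per cytosine in each library, 3.15% of 2316703 bins of the genome gained 40 points or more, and 15.0% of the 485983 bins that had 60% or less in WT and so could. With Fgfr2 taken as its coding transcript, 8 of 9 members had at least 1 such bin, against 61.7% of 21913 genes measured over the coding transcript and 25 kb on each side, and the members held 58, of which 29 lay at ligands and 29 at receptors. The receptor bins were uneven, with 23 at Fgfr2, 6 at Fgfr1 and 0 at Fgfr3. Testable bins also differed by gene, from 33 (Fgfr3) to 166 (Fgfr2) with the coding transcripts, so the 2 counts of 29 are not shares. By position, 37 of the 58 were in introns, 5 in exons, 11 upstream and 5 downstream. Their levels in TCKO ran from 48.0% to 97.1%, 25 had been under 20% in WT and 3 at 0%, and 56 passed the Fisher exact test over all testable bins (adjusted p under 0.05). The bins were chosen by their gain in the same calls. Neither this count nor the p-value of a single gaining bin therefore adds support. Matched by CpG, 57 of the 58 still gained 40 points or more. No member lost 40 points in any bin, apart from 1 bin of the long Fgfr2 gene model. Such losses were rare over the genome too, in 954 of 2316703 bins.

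**Figure D5:**
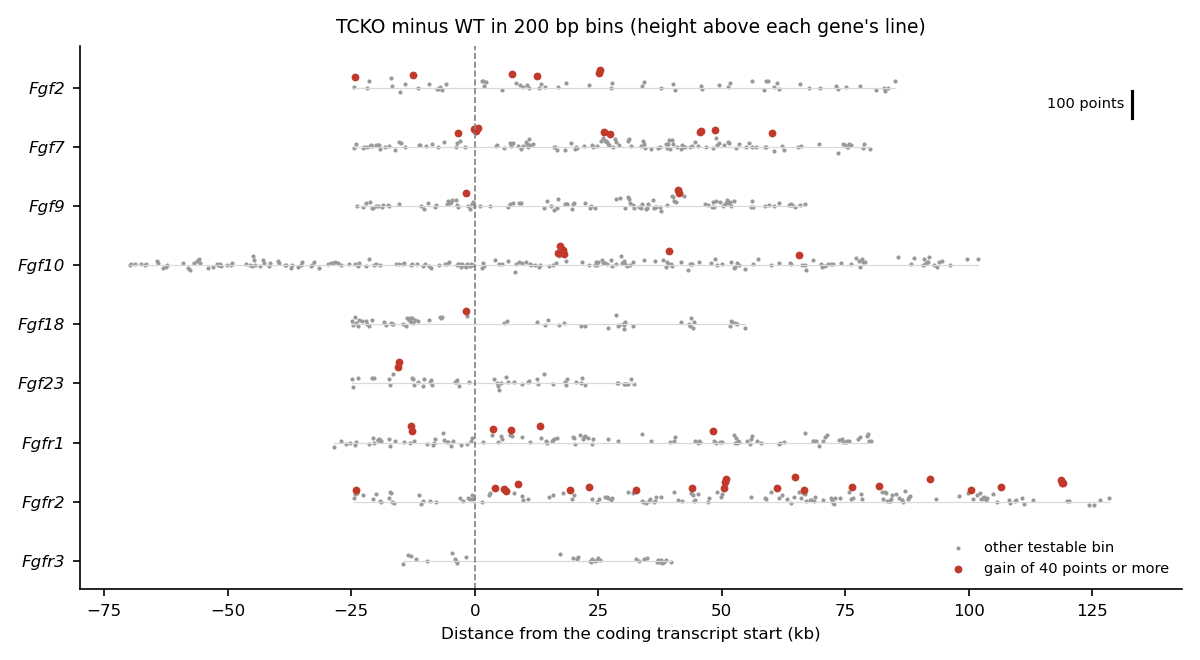
Testable 200 bp bins of the 9 members (Fgfr2 as its coding transcript) and 25 kb on each side, against distance from the coding transcript start in kb (x axis), with the height above the line of each gene giving TCKO minus WT in percentage points (scale bar, 100 points) and bins that gained 40 points or more in red. Of the 58 red bins only 5 lie within 2 kb of a coding start, 3 of them at Fgf7, while Fgfr2 has 23 spread over its transcript and flanks and Fgfr3 has none.

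Within 2 kb of the gene start, 9.68% of 19672 genes with a testable bin there had a gaining bin, and of the members Fgf7 had 3, Fgf9 had 1 and Fgf18 had 1. At Fgf9 this bin lay at -1847 bp and went from 38.9% to 88.5%. At Fgf18 the bin printed above, at -1700 bp, went from 5 of 43 methylated calls (11.6%) to 27 of 45 (60%), and it was the one gaining bin of that gene.

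Among the ligands, Fgf7 had 10 gaining bins of 134 testable (7.46%), or 41.7% of the 24 bins at 60% or less in WT, against 15.0% over the genome. Beside the 3 at the start, 5 lay in intron 2, where a pair over 400 bp went from 18.6% to 78.1%. Fgf2 had 6 of 67 testable bins, 4 of them in intron 1. The printed Fgf2 bin, 25247 bp into the gene with 7 CpGs, went from 1 of 79 methylated calls (1.27%) to 55 of 81 (67.9%, Fisher exact test, adjusted p = 2.08e-18), and the gaining bin nearest to the start, 7447 bp downstream, from 23.5% to 76.0%. Fgf2 thus changed in its first intron and, with 2 more gaining bins, upstream. Its CpG-rich centre was low in both libraries where it was read, but only 3 TCKO calls lay in its upstream 500 bp.

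Fgf10 had 7 gaining bins of 207, all in intron 1 and none near its start. Of these, 5 lay within 1400 bp beginning at 118731401, the longest such run of the members, with 66 of 314 methylated calls in WT (21.02%) and 195 of 280 in TCKO (69.6%). The printed Fgf10 bin, 17201 bp downstream of the coding start, went from 2 of 44 (4.55%) to 35 of 46 (76.1%), and the bin nearest to the start, at 16801 bp, from 38.9% to 85.3%. At Fgf10 the gaining bins thus lay 16801 bp or more downstream of the coding start. At Fgf7 the bin with the largest gain, also in intron 1, lay 642 bp from the start.

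Fgf23 had 2 of 54 testable bins, side by side at -15602 and -15402 bp from its start. The printed one went from 6 of 79 methylated calls (7.59%) to 45 of 51 (88.2%, Fisher exact test, adjusted p = 1.52e-18), a gain of 80.6 points and the largest at any ligand. Fgf9 had 3 of 112. Besides the upstream bin they lay in exon 3 at the end of the gene, where the one with the largest gain went from 30% to 90.9%.

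Among the receptors, Fgfr1 had 6 gaining bins of 117. The printed Fgfr1 bin, at -12889 bp from the coding start, went from 7 of 53 methylated calls (13.2%) to 30 of 40 (75%), and with its neighbour from 15.7% to 64.0% over 400 bp. Nearest to the coding start, 3711 bp into intron 1, a bin went from 31.9% to 83.3%. Fgfr3 had 0 of 33 testable bins, of which only 2 were at 60% or less in WT, so few bins of that gene could gain 40 points.

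Fgfr2 had 23 gaining bins of 166 testable (13.9%) with the coding transcript, or 36.5% of the 63 at 60% or less in WT, and 138 of 2783 with the gene model. Of the 23, 6 lay in intron 2 and 5 in intron 4. The first printed Fgfr2 bin, in intron 4, had the largest gain of any member's bin, from 2 of 28 methylated calls (7.14%) to 34 of 35 (97.1%), 90.0 points. The second, 50563 bp into the transcript, had 0 of 76 in WT, which allows up to 3.95%, and 52 of 70 in TCKO (74.3%, Fisher exact test, adjusted p = 3.85e-21). With both its neighbours it formed a stretch of 600 bp in which 5 of 180 calls were methylated in WT (2.78%) and 102 of 137 in TCKO (74.45%). A stretch of 600 bp downstream of the gene went from 16.5% to 89.1%. The gaining bin nearest to the coding start, 4163 bp into the gene in exon 2, went from 15.6% to 64.7%.

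A pair of short motifs was looked for in these bins on both strands, AACCACA for Runt factors such as RUNX2, the master regulator of osteoblasts, and TGACTCA for AP-1. The Runt letters were in 7 of the 58 gaining bins of the members, against 5.11% of all testable bins, 6.04% of those at 60% or less in WT and 8.99% of all gaining bins. The AP-1 letters were in 3 of the 58, against 3.05%, 4.24% and 8.43%. Those 3 were the Fgf7 bin at -3358 bp, with 2 copies, the second printed Fgfr2 bin, and 1 bin in intron 1 of Fgfr1. A match is a run of letters and not a bound site. CpGs per bin numbered 2 to 7 in the members' bins, with a median of 3 in these, in all gaining bins and in all testable bins.

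The values closest to the threshold of 40 points were 40 (Fgf2), 40.27 (Fgf10) and 40.80 (Fgfr2) above it and 39.41 (Fgfr2), 39.14 (Fgfr2) and 37.98 (Fgf9) below it.

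By the levels at the start and over the body in both libraries, the genes most like Fgf7 were Ppargc1a, a coactivator of mitochondrial gene expression (Euclidean distance over the 4 values 7.06 points, 40.9% to 81.6% at the start), Runx1, a Runt factor (7.98), Tmem176b (8.53), B3galt2 (9.19) and Apol6 (9.84). Ppargc1a, Runx1 and B3galt2 are among the 20 genes that gained 40 points or more at the start.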

How the data were processed

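WGBS was performed on 1 WT and 1 TCKO library. The authors aligned reads to GRCm38 with BSMAP 2.74 (the submitters' notes also name CASAVA), allowed at most 2 mismatches and kept uniquely mapped reads, and they deposited 2 raw counts for each CG cytosine of each strand, one of methylated calls and one of total calls. Duplicate removal is not given in the sources used here. Every deposited row lay on a CG of the reference. RNA-seq, ATAC-seq, 5hmC-Seal and ChIP-seq data were not analysed here.

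Levels were methylated over all calls, pooled in a region with at least 20 calls in each library, and carry 95% Wilson intervals, with Newcombe intervals for differences. At 579 and 449 calls, as at the Fgf7 start, the interval reaches about 4 points to each side. This width holds only if calls are independent, which calls on 1 read are not. Regions were tested by Fisher's exact test (2-sided), with p-values adjusted by Benjamini and Hochberg over all protein-coding genes, or over all testable bins, at 0.05. A level of 0 was given the limit that 3 calls of the total allow. Bins were 200 bp, with 4 or more rows (a cytosine on 1 strand) and a mean of 4 or more calls per row. Scripts were tested on simulated data.

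The members, the pathway list and the marker lists were chosen with earlier results of these data known. Named were all members, their subfamily partners, the 3 largest and 3 lowest changes of the pathway list (45 genes, of which Spry3 is not in the annotation), the Tet exon with the lowest ratio of calls, the gaining bin of each member with the largest gain and the one nearest to the start, and the 5 genes nearest to Fgf7. Runs of gaining bins, the Fgf7 bin at -3358 bp and the second Fgfr2 bin were chosen after their values were seen. Alternatives changed the window, depth minimum, strand, averaging, bin rule and flank, and 3 were added after seeing the data (coding transcript, calls matched by CpG by the Mantel-Haenszel method, and leaving out Fgfr2). Python 3.11.15, numpy 2.4.6, pandas 2.3.3, scipy 1.17.1, numba 0.67.0 and matplotlib 3.10.9 were used.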

Additional observations from a re-analysis of the deposited data

How the results depend on the processing

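No paired analysis was possible because each genotype had 1 library. The gain at the Fgf7 start stayed between 42.35 and 59.15 points under every alternative run. The count of members higher at the start, 5, was 2 with 1 kb on each side, 2 when every coding transcript start had to pass, and 2 when a gain of 20 points was also required (Fgf2 and Fgf7). The 173 gaining bins counted with the gene models became 500 with a mean of 1 call per row, 46 with a mean of 8 calls, 307 at 30 points, 101 at 50 points, 58 with the coding transcripts and 35 without Fgfr2. The 10 gaining bins of Fgf7 became 5 with 4 calls required in each of 4 rows and 5 with a mean of 8 calls. Of the other pathway genes, 11 in place of 22 were higher with 1 kb on each side. The Fgfr2 gain changed sign, to -0.243 points, with only the 2 kb upstream of the gene start, where it did not pass in either form. Single members that lost the call were Fgf18 (3.91 points), Fgfr1 (4.69 points) and Fgfr3 (4.34 points) with 1 kb on each side. Those that gained it were Fgf9 with 4 or more calls per row (7.04 points) or the plus strand (9.96 points) and Fgfr2 with 4 or more calls per row (4.29 points). The cause of these changes was not tested, apart from the smaller number of cytosines that the narrower windows and depth minimums keep by construction. With rows of 4 or more calls, Fgf18 and Fgfr3 kept their calls at 31.4 and 38.5 points. Taken as the mean of single rows, a form without a test, their gains were smaller, at 5.88 and 4.18 points. The starts of Fgf23, Fgf2 and Fgf18 had the fewest calls of the members, from 207 to 341 per library.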
